A study of Rattus norvegicus with 24 samples.

Results

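Caveolin-1 (Cav1), caveolin-2 (Cav2) and carbonic anhydrase 3 (Car3) were followed in primary rat hepatocytes cultured on a single collagen gel (monolayer, 1 layer) or with a second gel on top (sandwich, 2 layers). The 3 genes are 3 of 14217 genes that the arrays read by a probe set with a single gene symbol, and they had 9 probe sets of the 31042 tested: 3 for Cav1, 4 for Cav2 and 2 for Car3. Each gene was read by its probe set with the highest mean over the 24 arrays, and its other probe sets are given beside it. The genes were chosen by the measured difference between the cultures, strongly lower in sandwich for Cav1 and Car3, so that difference is described here without a test, and tests of these 3 genes are given only for changes between days within a culture. Total RNA came from cells 1, 2, 3 and 8 days past the laying of the second gel, with 3 replicates per culture and day, which gave 8 groups and 24 Affymetrix arrays. Both cultures grew in one serum-containing medium with epidermal growth factor, insulin, glucagon and hydrocortisone. The labels give neither the strain, sex or age of the rats nor whether the replicates were separate animals or wells, so the spread between them may be technical.

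Caveolae are small flask-shaped pits of the plasma membrane, built from caveolins in the membrane and cavins on its inner face. Cav1 is the main coat protein outside muscle, Cav2 binds Cav1 and reaches the cell surface with its help, and Cav3 is the form of muscle. Caveolae are scarce on hepatocytes of intact liver and plentiful on endothelial cells, adipocytes and fibroblasts. Car3 is a cytosolic carbonic anhydrase of low catalytic activity that is abundant in skeletal muscle, fat and the liver of adult male rats, where its level depends on growth hormone.

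Cav2 and Cav1 lie next to each other on chromosome 4, in the order Cav2 then Cav1, and the data below show different courses for them. The bases before their annotated starts are therefore printed, from RefSeq on the GRCr8 rat assembly, each covering the 250 bases before a start on the plus strand, 5′ to 3′, with motif matches in capitals. The Cav2 start has the region chr4:46582431-46582680, and Cav1 has 2 starts, with chr4:46606288-46606537 and chr4:46607722-46607971. The promoter table used here matched 2 of the 3 genes, and Car3 is only named.
Cav2 start 1: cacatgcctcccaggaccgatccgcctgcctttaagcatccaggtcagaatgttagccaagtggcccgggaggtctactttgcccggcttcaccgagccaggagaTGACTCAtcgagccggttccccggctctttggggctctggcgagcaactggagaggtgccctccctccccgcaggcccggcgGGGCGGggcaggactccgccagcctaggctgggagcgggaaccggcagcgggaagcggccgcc
Cav1 start 1: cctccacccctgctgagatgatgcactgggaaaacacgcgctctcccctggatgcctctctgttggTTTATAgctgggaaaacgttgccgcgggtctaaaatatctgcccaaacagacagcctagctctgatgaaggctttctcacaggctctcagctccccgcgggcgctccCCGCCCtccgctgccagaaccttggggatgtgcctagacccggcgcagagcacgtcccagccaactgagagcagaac
Cav1 start 2: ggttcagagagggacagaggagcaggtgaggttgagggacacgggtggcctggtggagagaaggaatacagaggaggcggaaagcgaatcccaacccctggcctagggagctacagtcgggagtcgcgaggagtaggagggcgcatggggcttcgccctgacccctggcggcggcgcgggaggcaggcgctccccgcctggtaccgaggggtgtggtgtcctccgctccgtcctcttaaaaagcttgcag
The letters searched on both strands were TATAAA for the box bound at many starts by the core machinery, CCAAT for the box of the factor NF-Y, GGGCGG for the GC box, TGANTCA for the AP-1 site and GGAATG for the TEAD site, together with the CArG box of the serum response factor. None of these overlapped another in the 3 windows. The Cav2 window held 1 AP-1 match and 1 GC box, the first Cav1 window held the letters TATAAA at 1 place and 1 GC box (both on the minus strand), and the second Cav1 window held none of the 6. Among 33469 rat promoter windows of this length, 12.9% held TATAAA, 34.0% CCAAT, 30.5% the GC box, 6.34% the AP-1 letters, 12.1% the TEAD letters and 1.50% a CArG box. All 3 windows were richer in G and C than the median window, at 68.4% for Cav2 and 60.0% and 65.6% for the Cav1 starts against 51.2%. They held 19, 13 and 17 CG pairs against a median of 5.

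Cav1 rose at each step in monolayer, and in sandwich it passed the test only between day 3 and day 8 and over the whole course. All levels are log2 values as deposited, and 5.62 is the median of all values of the 24 arrays. In monolayer Cav1 read 5.57, 5.85 and 6.07 on day 1, 7.18, 7.40 and 7.92 on day 2, 9.24, 8.65 and 9.43 on day 3, and 10.16, 10.23 and 10.39 on day 8. In sandwich it read 4.67, 4.70 and 4.89 on day 1, 4.84, 5.46 and 5.05 on day 2, 5.01, 5.09 and 5.28 on day 3, and 7.08, 6.88 and 6.20 on day 8. Every monolayer array of a later day thus lay above every array of the day before, while sandwich day 2 overlapped both day 1 and day 3 and the means of those days lay below the median of all values. On day 8 the sandwich arrays stood above monolayer day 1 but below monolayer day 2.

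The steps of Cav1 in monolayer were 1.67 ± 0.21 on the log2 scale (SE, n = 3 against 3) from day 1 to day 2, a 3.18-fold rise with a limma adjusted p of 1.12e-05. A further 1.61 ± 0.21 followed to day 3 (3.04-fold, adjusted p = 2.39e-05) and 1.15 ± 0.21 to day 8 (2.23-fold, adjusted p = 0.000345). From day 1 to day 8 Cav1 rose by 4.43 ± 0.21, or 21.5-fold, with an adjusted p of 2.17e-14, and took place 10 from the top among 14217 genes. In sandwich the steps to day 2 (0.36 ± 0.21, adjusted p = 0.475) and day 3 (0.01 ± 0.21, adjusted p = 0.995) did not pass. The 95% interval of the first ran from -0.08 to 0.80 and that of the second from -0.43 to 0.45. Cav1 then rose by 1.60 ± 0.21 from day 3 to day 8 (adjusted p = 7.38e-06), and by 1.97 ± 0.21 over days 1 to 8 (adjusted p = 8.71e-08), with no fold given because the starting level lay below the median of all values. In bulk RNA, more cells that express a gene and more RNA per cell cannot be told apart.

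As a reference for these calls, a gene was called at an adjusted p under 0.05, and the share of all genes called in either direction differs by comparison. In monolayer 6.98% of genes were called from day 1 to day 2, 7.26% from day 2 to day 3, 17.0% from day 3 to day 8 and 38.7% from day 1 to day 8. In sandwich the shares were 8.15%, 3.88%, 15.1% and 31.7% for the same steps. Of the 3 genes, 2 (Cav1 and Car3) were called in monolayer from day 1 to day 2, from day 2 to day 3 and from day 1 to day 8, and 1 (Cav1) from day 3 to day 8. In sandwich 1 was called from day 1 to day 2 and from day 2 to day 3 (Car3 each time), and 2 (Cav1 and Car3) in each of the steps that end on day 8.

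**Figure D1:**
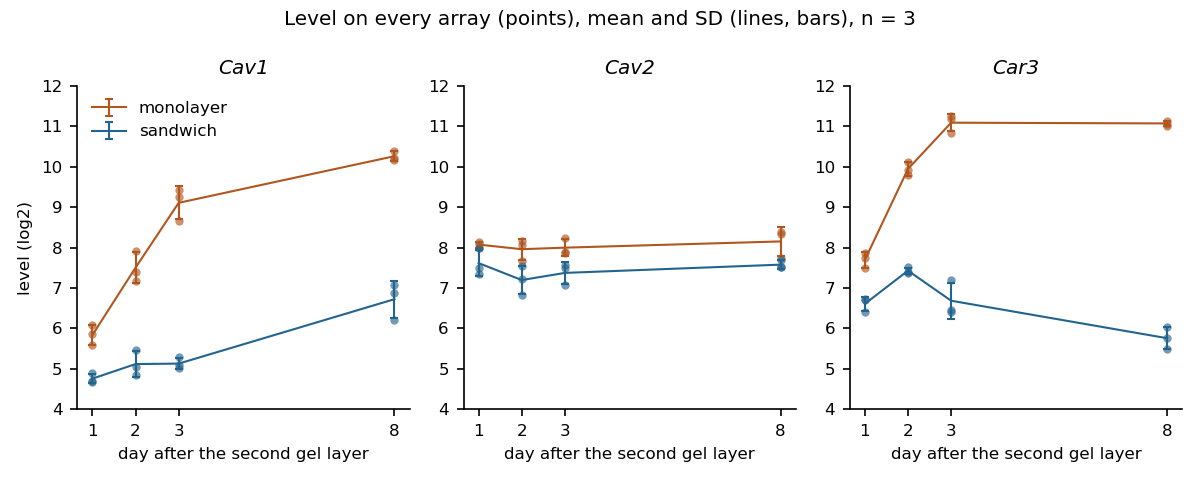
Level of Cav1, Cav2 and Car3 (log2, vertical axis) by day after the second gel layer (horizontal axis) in monolayer and sandwich; points are single arrays, lines join group means and bars are SD (n = 3). Cav1 reached a mean of 10.26 in monolayer and 6.72 in sandwich on day 8, Cav2 stayed between 7.20 and 8.15 in all 8 groups, and Car3 ended at 11.07 in monolayer and 5.76 in sandwich.

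Cav2, the partner of Cav1, kept nearly the same level over the days in both cultures. In monolayer it read 8.13, 8.09 and 7.99 on day 1, 8.06, 8.15 and 7.66 on day 2, 8.24, 7.90 and 7.86 on day 3, and 8.34, 8.37 and 7.74 on day 8. In sandwich it read 7.99, 7.35 and 7.50 on day 1, 7.54, 6.83 and 7.21 on day 2, 7.49, 7.56 and 7.06 on day 3, and 7.70, 7.51 and 7.52 on day 8. Within each culture the arrays of all 4 days overlapped. The change from day 1 to day 8 was 0.08 ± 0.19 in monolayer (limma adjusted p = 0.819, 95% interval -0.31 to 0.47) and -0.04 ± 0.19 in sandwich (adjusted p = 0.928, interval -0.43 to 0.35). The widest step, -0.42 ± 0.19 from day 1 to day 2 in sandwich, had an adjusted p of 0.268 and an interval from -0.81 to -0.03. With limma, none of the 16 tests over 4 probe sets and 4 steps was called in monolayer (0 at an unadjusted p under 0.05), and none of the 16 in sandwich (1 at an unadjusted p under 0.05). The interval in monolayer thus ended at 0.47 for Cav2 where the change of Cav1 on the same arrays was 4.43.

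Car3 rose in monolayer until day 3 and held that level, and in sandwich it rose a little on day 2 and then fell. In monolayer it read 7.86, 7.48 and 7.73 on day 1, 9.92, 9.80 and 10.13 on day 2, 11.18, 10.85 and 11.25 on day 3, and 11.14, 11.01 and 11.07 on day 8. In sandwich it read 6.72, 6.40 and 6.70 on day 1, 7.37, 7.51 and 7.40 on day 2, 6.41, 6.45 and 7.19 on day 3, and 6.02, 5.49 and 5.75 on day 8. The 3 monolayer arrays of day 8 lay inside the range of day 3, and the 3 sandwich arrays of day 8 lay below every other array of the series for this gene. The sandwich arrays of day 2 overlapped monolayer day 1, and 1 sandwich array of day 3 stood well above the other 2.

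In monolayer Car3 rose by 2.25 ± 0.17 from day 1 to day 2 (4.77-fold, limma adjusted p = 4.06e-09), place 5 from the top among 14217 genes, and by 1.15 ± 0.17 to day 3 (2.21-fold, adjusted p = 8.01e-05). The step from day 3 to day 8 was -0.02 ± 0.17 (adjusted p = 0.976, 95% interval -0.36 to 0.32), and the whole rise from day 1 was 3.38 ± 0.17 (10.4-fold, adjusted p = 3.32e-14). In sandwich Car3 rose by 0.82 ± 0.17 to day 2 (1.77-fold, adjusted p = 0.00200). It then fell by 0.74 on the log2 scale to day 3 (1.68-fold lower, adjusted p = 0.0114) and fell by 0.93 to day 8 (1.90-fold lower, adjusted p = 0.000313), which left day 8 at 1.80-fold below day 1 (adjusted p = 0.000317). The fall from day 2 to day 3 lost its call when sandwich day 2 replicate 2, day 3 replicate 1 or day 3 replicate 2 was left out (adjusted p = 0.0697 to 0.103) and when only the arrays of both days were fitted (adjusted p = 0.0643). The second Car3 probe set passed for none of the 4 sandwich changes, with 0.29, -0.20, -0.20 and -0.11 in the same order (adjusted p = 0.304, 0.634, 0.467 and 0.644). Its sandwich means were between 5.47 and 5.87, close to the median of all values.

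The further probe sets of Cav1 rose in the same steps as the gene value, but by less in sandwich. From day 1 to day 8 they rose by 3.71 and 4.25 in monolayer, against 4.43 for the gene value. In sandwich they rose by 1.07 (95% interval 0.74 to 1.40) and 1.04 (0.70 to 1.38), below the interval of the gene value, 1.53 to 2.41. Over the 3 Cav1 probe sets 12 of 12 monolayer tests and 6 of 12 sandwich tests were called, the latter all in steps that end on day 8. The Pearson correlation between Cav1 probe sets over the 24 arrays was 0.98 to 0.99, and it was 0.97 between the 2 of Car3. The 4 Cav2 probe sets were less alike, with correlations between 0.38 and 0.95. These correlations describe arrays that share the group means and carry no p.

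Sandwich lay below monolayer for each of the 3 genes on each day, which is what the choice of Cav1 and Car3 used. For Cav1 the difference was -1.08, -2.39, -3.98 and -3.54 on days 1, 2, 3 and 8 (SE 0.21), and on day 8, where both means were above the median of all values, it was 11.6-fold. For Car3 it was -1.09, -2.52, -4.41 and -5.32 (SE 0.17), or 2.12-, 5.73-, 21.2- and 39.9-fold. For Cav2 it was much smaller, at -0.46, -0.76, -0.63 and -0.57 (SE 0.19), or 1.37-, 1.70-, 1.54- and 1.49-fold. No sandwich array reached a monolayer array of the same day for any of the 3, although for Cav2 on day 1 the nearest arrays both read 7.99. Arrays without overlap and lower in sandwich were seen for 13.1% of all genes on day 1, 14.1% on day 2, 18.5% on day 3 and 24.8% on day 8.

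**Figure D2:**
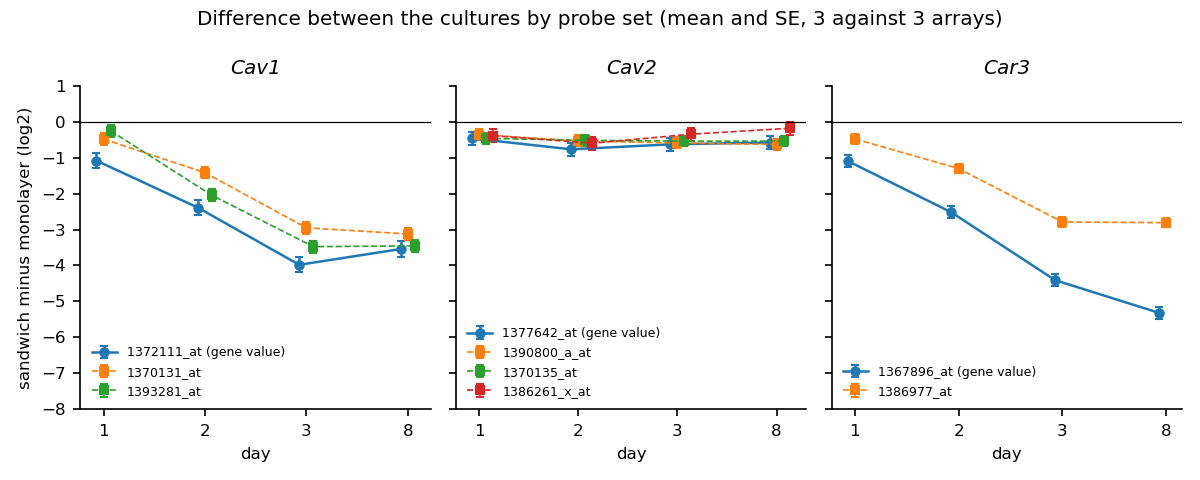
Difference between the cultures (sandwich minus monolayer, log2, vertical axis) by day (horizontal axis) for all 9 probe sets; points are means of 3 against 3 arrays, bars are SE, and the solid line marks the probe set that gives the gene value. The 3 Cav1 probe sets ended between -3.54 and -3.12 on day 8, the 4 of Cav2 between -0.63 and -0.18, and the 2 of Car3 at -5.32 and -2.81.

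The further probe sets also gave other sizes of difference between the cultures. The second Car3 probe set gave -0.47, -1.30, -2.79 and -2.81 over the 4 days, all without overlap. For Cav1 the third probe set gave -0.25 on day 1 with overlapping arrays, and on day 8 the further Cav1 probe sets gave -3.12 and -3.46. The dimmest Cav2 probe set lay below the median of all values in every group, and its arrays overlapped on days 1 and 8, as did those of another Cav2 probe set on day 2.

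The order of levels put Cav1 highest in monolayer day 8, then monolayer days 3 and 2, sandwich day 8 and monolayer day 1, each group clear of the next, followed by sandwich days 3, 2 and 1, which overlapped in turn. For Car3 monolayer days 3 and 8 overlapped at the top. Monolayer day 2 came next, clear of its neighbours, then monolayer day 1 and sandwich day 2, which overlapped, then sandwich days 3 and 1, which overlapped, and last sandwich day 8, clear of the rest. For Cav2 each group in the order overlapped the next.

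Among the other genes of the caveola coat, no difference between the cultures that passed the test was larger than 0.43 on the log2 scale. Of 8 listed genes 6 were read (Cavin1 and Cavin4 had no probe set with that single symbol). Cav3, Cavin2, which shapes the cavin coat, and Ehd2, an ATPase at the caveola neck, lay below the median of all values in all 8 groups. Between the cultures limma called none of the 6 on days 1 and 2 (1 on each day at an unadjusted p under 0.05) and 2 lower on each of days 3 and 8. Over all genes 2.57%, 8.67%, 22.7% and 36.3% were called on days 1, 2, 3 and 8. The median difference of the 6 was -0.03, -0.03, 0.02 and -0.23, against -0.01, 0.01, 0.01 and 0.00 over all genes.

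Cavin3, a cavin that binds caveolae through Cavin1, was called lower on both of the later days. It read 11.12 ± 0.04 (SD, n = 3) in sandwich and 11.44 ± 0.07 in monolayer on day 8, a difference of -0.32 ± 0.08 (SE, limma adjusted p = 0.00233), after -0.37 ± 0.08 on day 3 (adjusted p = 0.00107). Over days 1 to 8 it fell in both cultures, by 0.86 in monolayer (adjusted p = 2.42e-09) and by 1.02 in sandwich (adjusted p = 2.22e-10), so it went down on the arrays where Cav1 went up. Pacsin3, a membrane-bending F-BAR protein, was lower in sandwich by 0.43 ± 0.09 on day 8 (adjusted p = 0.000797). On day 3 its difference was -0.27 (adjusted p = 0.0475), which lost its call without any 1 of the 6 arrays compared (adjusted p = 0.0660 to 0.159). Its relative Pacsin2 was at -0.27 ± 0.11 on day 8 (adjusted p = 0.0839). Ehd2 rose from 5.01 ± 0.08 to 5.48 ± 0.17 in monolayer from day 1 to day 8 (0.46, adjusted p = 0.00323). Cav3, at -0.16 ± 0.12 on day 8 (adjusted p = 0.372), and Cavin2, at -0.18 ± 0.12 (adjusted p = 0.281), stayed uncalled there.

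Among membrane scaffolds and proteins reported at caveolae, those called between the cultures were lower in sandwich on days 1 to 3 and higher on day 8. Of 12 genes read, limma called 0 higher and 1 lower on day 1, 0 and 2 on day 2, 0 and 3 on day 3, and 3 higher and 0 lower on day 8. Over all genes 2.57%, 8.67%, 22.7% and 36.3% were called on those days, and the 3 of 12 called were near that share on day 3 and below it on day 8. Their median differences were -0.12, 0.04, -0.13 and 0.11. Cd36, a fatty acid transporter, was lower in sandwich on day 1 (9.92 ± 0.11 against 10.82 ± 0.02, adjusted p = 1.03e-05) and rose by 1.84 ± 0.11 there to day 8 (3.57-fold, adjusted p = 1.50e-12). Cd36 also rose in monolayer over those days, by 0.65 to 0.81 with 1 array left out in turn (limma adjusted p at most 0.000122). On day 8 it was not called between the cultures. The recycling ATPase Ehd4 was 1.50-fold lower in sandwich on day 3 (-0.59 ± 0.10, adjusted p = 0.000114). On day 8 its relatives Ehd1 (0.73 ± 0.11, adjusted p = 1.15e-05) and Ehd3 (0.38 ± 0.10, adjusted p = 0.00373) and the high-density lipoprotein receptor Scarb1 (0.38 ± 0.10, adjusted p = 0.00598) were higher in sandwich. Scarb1 had been lower there on day 3 (-0.33 ± 0.10, adjusted p = 0.0274). That day 3 call was lost without monolayer replicate 1 or 2 or sandwich replicate 1 or 2 (adjusted p = 0.0714 to 0.129).

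**Figure D3:**
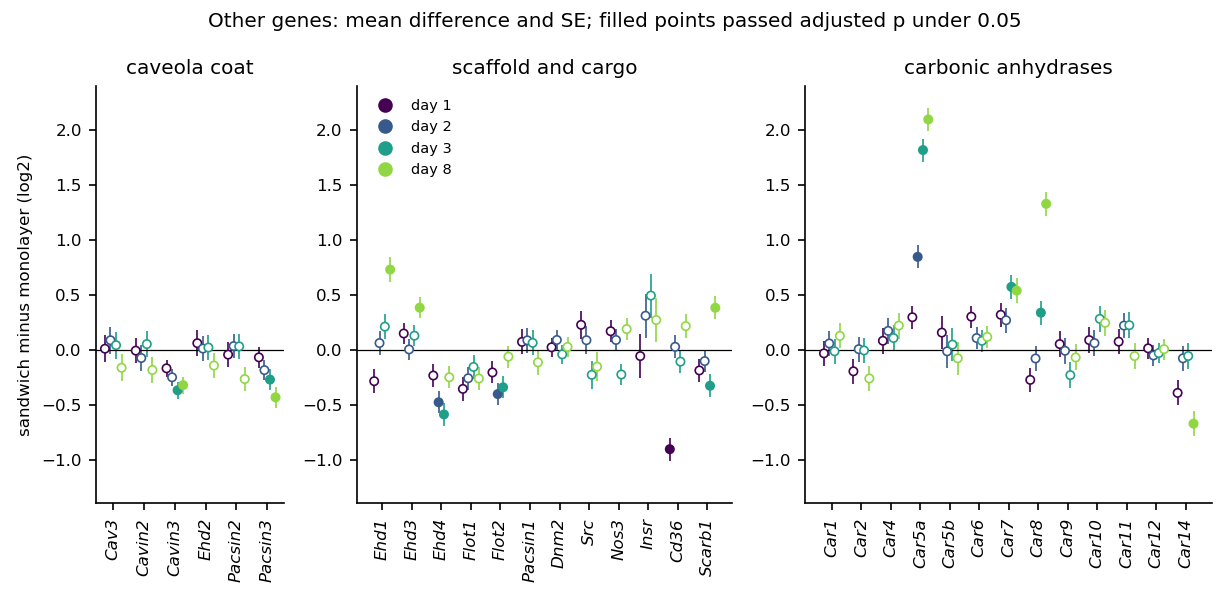
Difference between the cultures (sandwich minus monolayer, log2, vertical axis) for every gene read of the caveola coat, of scaffolds and cargo, and of the carbonic anhydrases other than Car3 (horizontal axis), by day in colour; points are means of 3 against 3 arrays, bars are SE, and filled points passed an adjusted p under 0.05. No coat gene passed upward, and Car5a and Car8 reached 2.10 and 1.33 on day 8.

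Carbonic anhydrases interconvert carbon dioxide and bicarbonate. The other members of the family were called on days 2 and 3 at about the share of all genes, and those called were higher in sandwich. Of 15 other family members 13 were read, and 7 of these (Car1, Car4, Car5b, Car6, Car7, Car9 and Car10) lay below the median of all values in every group. Limma called none of the 13 between the cultures on day 1 (5 at an unadjusted p under 0.05), 1 higher in sandwich on day 2, 3 higher on day 3, and 3 higher and 1 lower on day 8. The shares over all genes were 2.57%, 8.67%, 22.7% and 36.3%. The calls among the 13 were thus near that share on days 2 and 3 and below it on day 8. The shares called lower were 1.75%, 5.85%, 11.8% and 20.7%, so that 0 of 13 called lower on days 1 to 3 lies near the background. The median difference was 0.07, 0.06, 0.08 and 0.12 on the 4 days.

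Car5a, the mitochondrial enzyme of liver that feeds bicarbonate to ureagenesis and gluconeogenesis, ran opposite to Car3. In sandwich it was higher by 0.84 ± 0.10 on day 2, 1.82 ± 0.10 on day 3 and 2.10 ± 0.10 on day 8 (1.80-, 3.52- and 4.27-fold, adjusted p = 4.30e-06, 2.37e-12 and 6.32e-14). On day 8 it read 7.88 ± 0.06 in sandwich and 5.79 ± 0.21 in monolayer. Car8, a family member without catalytic activity, read 9.07 ± 0.04 in sandwich and 7.74 ± 0.22 in monolayer on day 8 (2.51-fold higher, adjusted p = 6.83e-10). Its smaller day 3 difference of 0.34 (adjusted p = 0.0364) was lost without monolayer replicate 2 or 3 or sandwich replicate 1 or 2 (adjusted p = 0.0755 to 0.157). Car7, below the median of all values throughout, was higher by 0.57 and 0.54 on days 3 and 8 (adjusted p = 0.000495 and 0.000547). The membrane enzyme Car14 was the one called lower on day 8, at 8.19 ± 0.05 in sandwich against 8.86 ± 0.15 in monolayer (1.59-fold, adjusted p = 4.94e-05). Car2, the fast cytosolic enzyme encoded beside Car3, was at -0.26 ± 0.11 on day 8 (adjusted p = 0.0969) and was called on none of the 4 days.

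Of the genes known to respond to growth hormone in rat liver, those called between the cultures were higher in sandwich, where Car3 was lower. Of 9 listed 8 were read (Cyp4a2 was not). Between the cultures limma called none on days 1 and 2 (0 on each at an unadjusted p under 0.05), 3 higher in sandwich on day 3 and 4 higher on day 8, where 22.7% and 36.3% of all genes were called in either direction. The median difference was 0.08, 0.12, 0.28 and 0.64. Higher levels in sandwich were not particular to this list. On day 8 limma called 8 of 9 hepatocyte markers higher there, with a median difference of 1.03. On day 8 Igf1, the circulating growth factor made on growth hormone signalling, read 11.13 ± 0.10 in sandwich and 9.31 ± 0.34 in monolayer (3.53-fold, adjusted p = 2.03e-12). The steroid hydroxylase Cyp2c12, the form of female rats, was 3.95-fold higher in sandwich (adjusted p = 2.22e-08), and the growth hormone receptor Ghr was 2.36-fold higher (adjusted p = 1.39e-06). In monolayer these 3 genes fell from day 1 to day 8, by 1.95 for Igf1 (adjusted p = 4.62e-13), 1.67 for Cyp2c12 (adjusted p = 2.95e-07) and 0.79 for Ghr (adjusted p = 0.000393), while Car3 rose 10.4-fold there. Of the 8 genes read, 3 were called lower over those days, 1 higher and 4 not called, with a median of -0.01, beside 38.7% of all genes called. The one called higher, as Car3 was, is Cyp2c11, the steroid hydroxylase of male rats, named after its values were seen (0.42 ± 0.13, adjusted p = 0.0150). The part of growth hormone in the course of Car3 was not tested. The change from day 1 to day 8 was also compared between the cultures within the fit. The difference was called, higher in sandwich each time, for 4 of these 8 genes, 3 of the 12 scaffold and cargo genes, 2 of the 13 carbonic anhydrases and 0 of the 6 coat genes (1 at an unadjusted p under 0.05), beside 21.8% of all genes in either direction.

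Among the genes beside the members on the chromosome, named by their order in the GRCr8 annotation, Tes and Met on the Cav side differed most between the cultures. Of the 12 nearest measured genes, 3 on each side of both places, limma called none between the cultures on day 1 (4 at an unadjusted p under 0.05), 0 higher and 2 lower on day 2, 1 and 2 on day 3, and 2 and 4 on day 8. Over all genes 2.57%, 8.67%, 22.7% and 36.3% were called. The median difference was -0.09, -0.06, -0.01 and -0.11. Of these calls, that of Met on day 2 was lost without any 1 of 5 of the 6 arrays (all but sandwich replicate 1, adjusted p = 0.0641 to 0.138). That of Mdfic on day 3 was lost without sandwich replicate 2 (adjusted p = 0.0587), and that of Capza2 on day 8 without sandwich replicate 1 or 3 (adjusted p = 0.0541 to 0.0570). Tes, which encodes testin, a LIM protein of focal adhesions and the nearest measured gene before Cav2, was lower in sandwich by 1.39, 1.98 and 1.88 on days 2, 3 and 8 (adjusted p = 6.20e-08, 3.02e-11 and 2.93e-11). It rose 2.11-fold in monolayer from day 1 to day 8 (12.13 ± 0.16 against 11.06 ± 0.22, adjusted p = 3.76e-07), and in sandwich its change was -0.35 ± 0.13 (adjusted p = 0.0519).

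Met, the receptor of hepatocyte growth factor and the nearest gene after Cav1, was 2.39-fold lower in sandwich on day 8 (5.71 ± 0.36 against 6.97 ± 0.22, adjusted p = 2.17e-07). In monolayer its change from day 1 to day 8 was 0.11 ± 0.15 (adjusted p = 0.656), and in sandwich it fell by 0.68 (adjusted p = 0.000811). Mdfic and ST7, farther out on either side, were higher in sandwich on day 8 by 0.86 and 0.41 (adjusted p = 4.82e-08 and 0.000669) and fell in monolayer from day 1 to day 8 by 1.09 and 0.68 (adjusted p = 6.53e-10 and 7.65e-07). Tfec lay below the median of all values. Beside Car3, on chromosome 2, neither Car2 nor Car1 was called between the cultures, nor were Zfp455, Zfp457 and Rbis. E2f5, a repressive E2F factor, was at -0.39 ± 0.13 on day 8 (adjusted p = 0.0235), a call lost without monolayer replicate 2 or 3 or sandwich replicate 2 or 3 (adjusted p = 0.0741 to 0.0984). Over days 1 to 8 some of these genes fell. With 1 array left out in turn, Rbis changed by -1.18 to -0.81 in monolayer (limma adjusted p at most 0.0108). E2f5 changed by -0.55 to -0.41 in monolayer (at most 0.0279) and by -1.04 to -0.91 in sandwich (at most 3.52e-05).

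**Figure D4:**
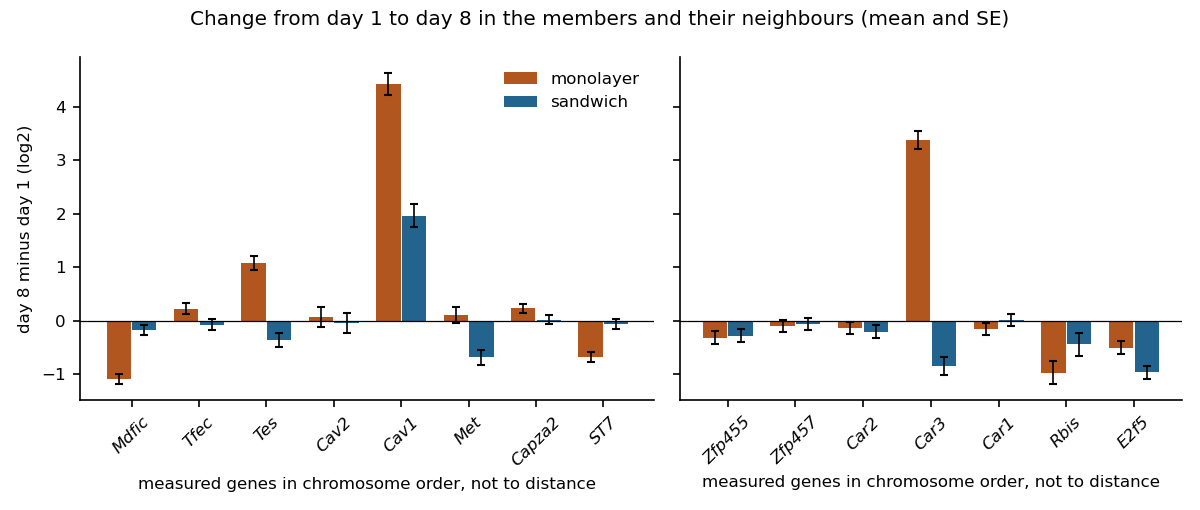
Change from day 1 to day 8 (log2, vertical axis) in monolayer and sandwich for the members and the nearest measured genes on each side, in chromosome order without distances (horizontal axis); bars are means of 3 against 3 arrays with SE. Cav1 (4.43 in monolayer) and Car3 (3.38) rose far more than the genes beside them, of which Tes in monolayer, at 1.08, comes next. Mdfic and Rbis in monolayer and E2f5 in sandwich fell by a similar amount. Cav1 and Car3 were chosen for their difference between the cultures on these same arrays.

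The genes most like each member were found by Pearson correlation over the 24 arrays, among 2067 genes whose group means spanned at least 1 on the log2 scale. Closest to Cav1 were Filip1l (0.99), the ankyrin repeat cofactor Ankrd1 (0.98), the membrane repair ferlin Myof (0.98), the granzyme inhibitor Serpinb9 (0.98) and the actin-binding Marcksl1 (0.98). Closest to Car3 were the microtubule regulator Stmn1, skeletal muscle actin Acta1, alpha-actinin Actn1 and keratin Krt8 (each 0.95) and the transgelin Tagln2 (0.94). Cav2 had no match as close, with Hivep1 and the condensin subunit Smc2 at 0.88, Asap1 at 0.86 and Elf1 and Mtmr11 at 0.83. All these arrays share their group means, so the values describe likeness of pattern only.

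The labelled cell type was checked against its markers, and 9 of 9 hepatocyte markers lay above the median of all values in at least 1 group, with list means between 11.50 and 12.61 over the 8 groups. On day 8 limma called 8 of the 9 higher in sandwich, beside 36.3% of all genes called. Endothelial cells are rich in Cav1, and 8 of 9 endothelial markers lay below the median of all values in every group, among them Pecam1, Kdr and Tek. The exception, Plvap, lay above it in at least 1 group, and the list mean stayed between 4.43 and 4.56. Limma called 1 of the 9 higher in sandwich on day 8, beside 36.3% of all genes called. Within sandwich 1 was called higher from day 1 to day 8, beside 31.7%. For fat, 3 of 7 markers read lay below the median of all values in every group (Adipoq, Fabp4 and Lep). Plin1, Cfd, Cidec and Lipe lay above it in at least 1 group. For skeletal muscle 5 of 8 lay below it in every group (Ckm, Myh4, Myl1, Tnnt3 and Mb), and Actn3, Tnni2 and Myh1 lay above it in at least 1 group. The list means ran from 5.57 to 5.87 over 7 adipocyte markers and from 5.30 to 5.55 over 8 muscle markers.

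Some markers of other cell types also changed over the days. The mean of 9 stellate or fibroblast markers was 4.86, 5.03, 5.19 and 5.46 in monolayer on days 1, 2, 3 and 8, and between 4.90 and 5.28 in sandwich. From day 1 to day 8 limma called 4 of the 9 higher in monolayer and 3 in sandwich, and none lower. Over all genes 17.5% and 14.3% were called higher, and 38.7% and 31.7% in either direction. Dcn, Lum, Lrat and Pdgfra lay below the median of all values throughout. Between the cultures 1 of the 9 was called lower in sandwich on day 3 and 2 on day 8. Over all genes 11.8% and 20.7% were called lower on those days. The mean of 5 smooth muscle markers was 5.68 on day 1 and 6.11 on day 8 in monolayer, against 5.72 and 5.77 in sandwich. In monolayer 2 of the 5 were called higher and none lower over those days. Over all genes 17.5% were called higher and 38.7% in either direction. Between the cultures 2 of the 5 were called lower in sandwich on each of days 3 and 8. Over all genes 11.8% and 20.7% were called lower. The median difference of the 5 was -0.42 and -0.37. The mean of 5 cholangiocyte markers stayed between 5.30 and 5.38 in monolayer on days 1 to 3, and reached 6.99 on day 8 against 5.69 in sandwich. From day 1 to day 8 in monolayer limma called 3 of the 5 higher and 2 not. Over all genes 17.5% were called higher and 38.7% in either direction. The median change of the 5 was 0.60. Between the cultures 1 of the 5 was called higher in sandwich on day 3, and 2 were called lower on day 8. Over all genes 10.9% were called higher on day 3 and 20.7% lower on day 8. Krt19 and Krt7 rose by 3.77 and 3.52 (adjusted p = 1.48e-18 and 3.94e-15), while Cftr lay below the median of all values in every group. The mean of 6 macrophage markers was 5.83, 5.73, 5.50 and 5.89 in monolayer on days 1, 2, 3 and 8, lowest on day 3, and 5.81, 5.84, 6.04 and 5.76 in sandwich. On day 3 limma called 5 of the 6 higher in sandwich, beside 22.7% of all genes called. On day 8 it called 0 higher and 1 lower, beside 36.3%. The part of these cells in the Cav1 course was not tested. As for RNA quality, control probe sets for beta-actin read higher at the 3′ end than at the 5′ end by 0.82 ± 0.04 (SD, n = 12) in monolayer and 0.99 ± 0.11 in sandwich, and those for GAPDH by 0.27 ± 0.07 and 0.32 ± 0.10. Its part in the differences between the cultures was not tested.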

How the data were processed

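The authors deposited 1 table of log2 expression values for 24 arrays. The submitters' processing notes name RMA and limma without saying what each was used for, and the genome build behind the probe sets is not given in the sources used here. Values ran from 2.61 to 15.07, array medians from 5.57 to 5.67, and arrays of a group correlated at 0.993 or more. Of 31099 probe sets 57 controls were left out. Of the 31042 tested 20826 carried 1 symbol, 436 several and 9780 none. Group means were fitted to all 24 arrays with limma 3.58.1 in R 4.3.3, adjusted by Benjamini-Hochberg over all 31042 and called at an adjusted p under 0.05, after a test on simulated data. A fold is given only where the lower mean was at least 5.62. No detection calls were used, and precision is limited by the number of arrays. The members and gene lists were chosen with earlier results of these data known. The named genes are the members, every coat gene, the 5 scaffold and cargo genes and 5 carbonic anhydrases (4 and Car2) with the smallest adjusted p between the cultures, 3 growth hormone-responsive genes, 12 neighbours and the 5 genes most correlated with each member. Alternatives were centring, quantile normalization, the mean of all probe sets of a gene, a filter on dim probe sets, trended and robust variance, array weights, only the groups compared, each replicate left out, and the replicate number as a block.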

Additional observations from a re-analysis of the deposited data

Results flagged for a closer look

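For 8 named genes from 3 lists the change from day 1 to day 8 differed between the cultures by a test of the difference itself in the limma fit (sandwich minus monolayer, log2, ± SE). In all it was called for 3 of 12 scaffold and cargo genes, 2 of 13 carbonic anhydrases and 4 of 8 genes that respond to growth hormone, beside 21.8% of all genes in either direction. Among scaffold and cargo genes it was 1.12 ± 0.15 for Cd36 (adjusted p = 4.72e-06), 1.02 ± 0.16 for Ehd1 (adjusted p = 3.16e-05) and 0.57 ± 0.15 for Scarb1 (adjusted p = 0.00665). Among carbonic anhydrases it was 1.80 ± 0.15 for Car5a (adjusted p = 1.97e-09) and 1.60 ± 0.16 for Car8 (adjusted p = 3.52e-08). Among genes that respond to growth hormone it was 1.71 ± 0.16 for Igf1 (adjusted p = 1.16e-08), 2.26 ± 0.28 for Cyp2c12 (adjusted p = 1.90e-06) and 1.37 ± 0.23 for Ghr (adjusted p = 9.00e-05). Of these genes, Cd36 rose in both cultures, from a lower day 1 level in sandwich.

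By the probe set that gives its gene value, Car3 moved in opposite directions without overlap in the cultures. From day 2 to day 3 every monolayer array rose above, and every sandwich array fell below, those of the earlier day, and the changes differed by -1.89. From day 1 to day 8 the same held, and the changes differed by -4.23. These differences were not tested, since Car3 was chosen for its difference between the cultures. By the second Car3 probe set the sandwich arrays of both days overlapped in each case (-0.20, adjusted p = 0.634, and -0.11, adjusted p = 0.644). The fall from day 2 to day 3 in sandwich lost its limma call without sandwich day 2 replicate 2, day 3 replicate 1 or day 3 replicate 2 (adjusted p = 0.0697 to 0.103).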

How the results depend on the processing

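The Cav1 and Car3 changes called over the days kept their direction and call under the alternatives, except the Car3 fall from day 2 to day 3 in sandwich. That fall of -0.74 lost its call with only the arrays of both days fitted (-0.74, adjusted p = 0.0643), and with 1 array left out it ran from -1.0 to -0.61. Read by the second Car3 probe set alone, none of the 4 sandwich changes was called (limma adjusted p = 0.304, 0.634, 0.467 and 0.644). Reading a gene by the mean of its probe sets moved the differences between the cultures to -0.60, -1.95 and -3.47 for Cav1 on days 1 to 3, and to -0.78, -1.91, -3.60 and -4.06 for Car3 on the 4 days. It also turned the change of Igf1 over days 1 to 8 in sandwich from -0.25 (adjusted p = 0.115) to 0.48 (adjusted p = 0.0128). The cause was not tested. Coat genes called lower on day 2 went from 0 to 1 under median centring, quantile normalization, mean probe sets, the filter on dim probe sets, trended variance, array weights and the block below. On day 3 they went from 2 to 1 under median centring, with only the groups compared, and with any 1 array left out (1 to 1). Carbonic anhydrases called lower on day 1 went from 0 to 1 under array weights and the block. Those called higher on day 2 went from 1 to 2 under array weights. Those called lower on day 8 went from 1 to 2 with mean probe sets and array weights, and lay between 1 and 2 with 1 array left out. Array weights raised the probe sets called between the cultures from 552 to 933 on day 1 and from 1809 to 3688 on day 2, and in the steps to days 2 and 3 from 1556 to 3578 and 1560 to 3378 (monolayer) and from 1802 to 2722 and 884 to 1800 (sandwich). With only the groups compared the counts were 818 and 444 for the step to day 3 in monolayer and sandwich, and 2312 in place of 3470 for sandwich day 3 to day 8. With 1 array left out the day 1 count fell to as few as 322, the monolayer steps to 982 and 791, and the sandwich step to day 3 to 374. The deposited values carry no background measure, which limits what can be said of levels below 5.62.

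The labels number replicates 1 to 3 in every group and do not say what a number stands for. Of 84 pairs of arrays with the same number in different groups, 56 had deviations correlated above 0.1 (median 0.20, range -0.43 to 0.53). Of 168 pairs with different numbers 37 did (median -0.13). Arrays of the same number were thus more alike, though what they share is not known. The main fit did not use the numbers, because the labels do not say what they stand for. With the number as a block, SEs of changes over the days were 0.14 for Cav2 and Car3, against 0.19 and 0.17 without it. With the replicate number as a block the change of Cav1 from day 1 to day 8 in monolayer was 4.43 (adjusted p = 1.71e-14), every member call over the days was kept, and the counts moved only as given above.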
